A study of Rattus norvegicus with 15 samples.

Results

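A set of 7 circular RNAs (circRNAs) of rat blood, out of 43472 in the deposited table, had been picked because each was higher at some time after modelling of deep venous thrombosis. They are CBT15_circR_40191, CBT15_circR_36565, CBT15_circR_22046, CBT15_circR_4859, CBT15_circR_6449, CBT15_circR_25900 and CBT15_circR_40460. They were picked with all 15 libraries in view, CBT15_circR_40460 on 3 d against 1 h and others on a time against sham. Every difference from sham, and every contrast that rests on the levels a circRNA was picked for, is therefore a description without a test. The table identifies circRNAs by running numbers alone, without gene names, positions or sequences, so none of these is attached to them here.

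A circRNA is a closed loop made when the splicing machinery joins the end of an exon back to the start of the same or an earlier exon. Having no free ends, circRNAs resist exonucleases, and they are abundant in platelets and red cells, which have no nucleus. They are recognised in sequencing data only by the reads that cross this back-splice, which are a small part of all reads from a locus. In deep venous thrombosis a clot forms in a deep vein, and platelets, leukocytes and the coagulation cascade take part.

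Whole blood came from male Sprague-Dawley rats aged 6 to 8 weeks, a strain that is outbred. Libraries of total RNA fall into 5 groups of 3: sham, which the labels place at 0 h, and 1 h, 6 h, 12 h and 72 h (3 d) after modelling. The labels give one sham group for all 4 times, do not say how thrombosis was modelled, and do not tie libraries of 1 group to different animals. P-values therefore measure only the spread between these libraries, which may be technical. The title prefix of the 9 libraries at sham, 1 h and 3 d ends in A&B, and that of the 6 libraries at 6 h and 12 h ends in C. The meaning of this prefix is not given in the titles, and the 2 kinds are called set A&B and set C here. No sham library is in set C, so for 6 h and 12 h a difference from sham by time and one by set cannot be told apart. In whole blood, fewer cells of a type and less RNA per cell cannot be told apart either.

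Levels are in SRPBM: the back-spliced reads found for a circRNA, scaled to 1e9 mapped reads. Mapped reads per library ran from 66.0 to 92.4 M (M, 1e6). The smallest value listed in any library stands for 2 reads, so a circRNA with fewer reads is listed at 0, and 0 is not read as absence. Sham replicate 2 and 1 h replicate 1 listed 2958 and 2551 circRNAs, against 9354 to 15366 in the other 13 libraries. Most of the main results that these libraries touch are given with and without them. The choice to leave both out of counts against sham and of correlations was made after seeing the data.

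The label "higher after modelling" fitted the 7 circRNAs unevenly. Of 21 values in the sham libraries, 4 were above 0, against 10 of 21 at 1 h and 14 of 21 at 3 d in set A&B. In set C it was 21 of 21 at 6 h and 20 of 21 at 12 h. The 4 sham values were in sham replicate 3 (CBT15_circR_40191, CBT15_circR_22046 and CBT15_circR_40460) and in sham replicate 1 (CBT15_circR_4859). At 1 h, 1 of the 7 circRNAs had all 3 libraries above all 3 sham libraries, against 1.1% of the 16767 circRNAs listed above 0 in at least 3 libraries. At 6 h it was 5 of 7 (8% of all), at 12 h 4 of 7 (6.43%) and at 3 d 2 of 7 (3.64%). The circRNAs were picked on these contrasts, so nothing is read from the gap between these shares. On log2(SRPBM + 23.2), where 23.2 is a pseudocount that keeps zeros finite, the median difference of the 7 from sham was largest in set C, 4.26 at 6 h and 4.22 at 12 h. It was 1.65 for the 1 h libraries and 1.97 for those of 3 d. Over all 16767 circRNAs the medians were 0.11, 0.46, 0.43 and 0.20 in order of time. Without sham replicate 2 and 1 h replicate 1, the medians of the 7 were 2.47, 4.21, 3.43 and 1.92 in that order, and those of all 16593 circRNAs tested were 0.29, 0.29, 0.22 and 0. The circRNAs above all remaining sham libraries were then 2 of 7 for 1 h (19.8% of all) and 5 of 7 for 6 h (9.02%). For 12 h they were 4 of 7 (7.15%) and for 3 d 2 of 7 (4.16%).

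**Figure D1:**
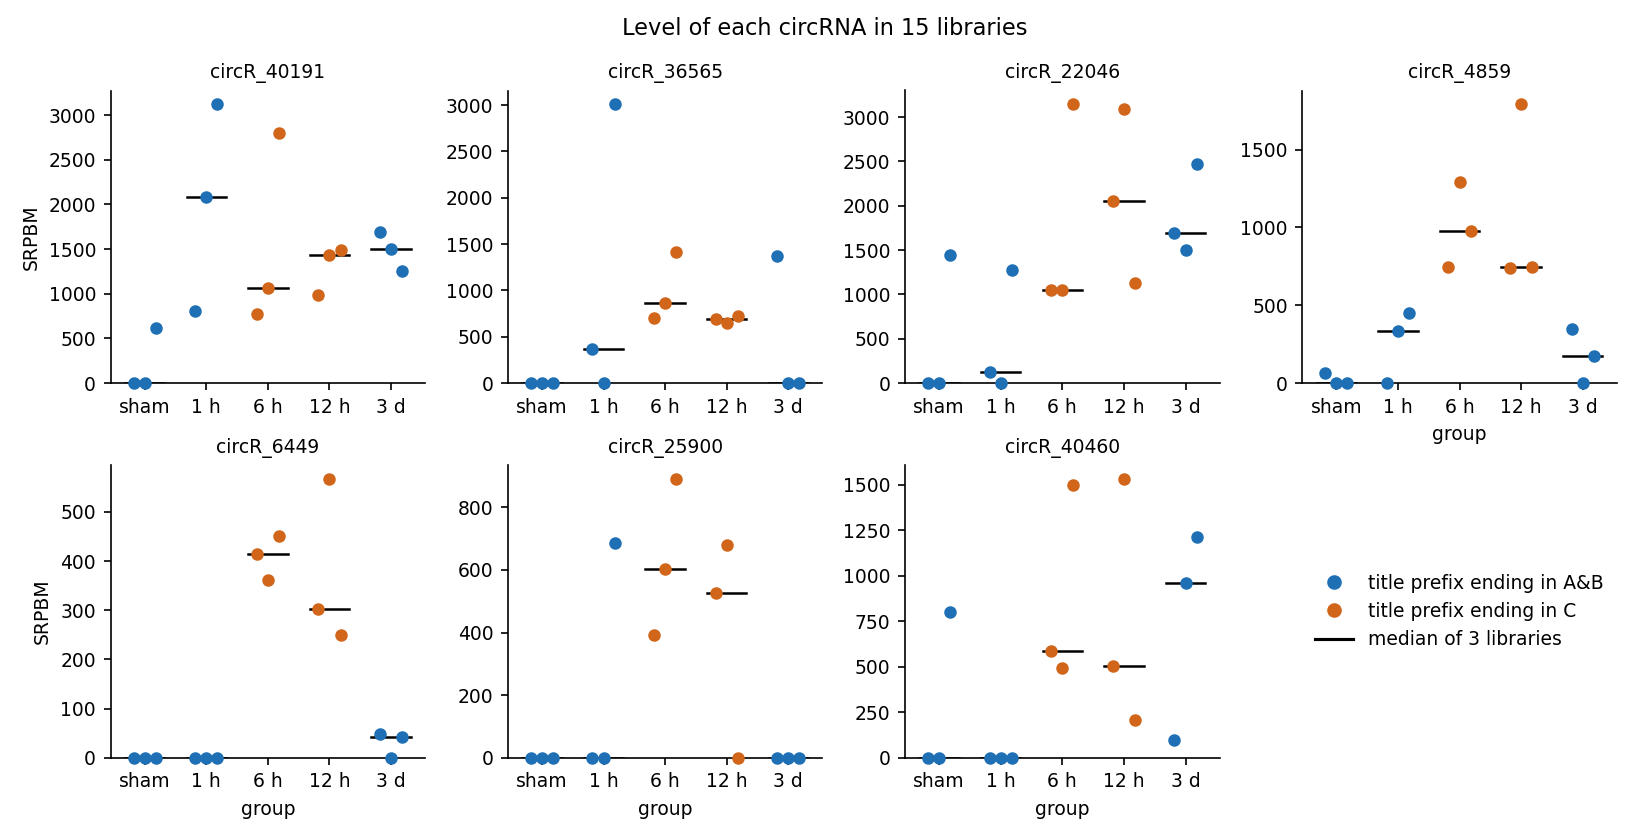
SRPBM (vertical axis, linear, each panel on its own scale) of the 7 circRNAs in the 3 libraries of each group (horizontal axis), with points coloured by title prefix and a bar at the group median. CBT15_circR_40191 is above 0 in all 12 libraries after modelling, while CBT15_circR_6449 is high in the 6 libraries of set C and at 0 to 47.8 SRPBM in the other libraries after modelling.

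CBT15_circR_40191 was the only one of the 7 that lay above all sham libraries at every time, starting at 1 h. It was listed at 0 and 0 in sham replicates 1 and 2 and at 615 SRPBM in sham replicate 3, which rests on 53 reads (exact 95% Poisson interval 39.7 to 69.3, counting error only). It lay at 805, 2088 and 3119 SRPBM in the 1 h libraries, and the 6 h libraries held 769.7, 1062 and 2802. Levels of 984, 1439 and 1494 SRPBM followed at 12 h, and of 1696, 1505 and 1255 at 3 d. All 12 libraries after modelling lay above all 3 sham libraries, a pattern shared by 0.0537% of the 16767 circRNAs, and chosen for by the rule. The lowest of the 12, 6 h replicate 1, stood 1.25-fold over the highest sham library, so the gap is narrow on that side. The spread between libraries was smaller at later times: the highest library was 3.88-fold the lowest at 1 h and 3.64-fold at 6 h, but 1.52-fold at 12 h and 1.35-fold at 3 d, a description over 3 libraries each that was not tested. Group means were 6.37-fold (12 h) to 9.78-fold (1 h) the sham mean, and the sham mean rests on sham replicate 3 alone. Without both libraries with few circRNAs they were 4.25-fold (12 h) to 8.47-fold (1 h).

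CBT15_circR_22046 and CBT15_circR_40460 were higher in most libraries from 6 h through 3 d, and both were also high in 1 sham library. CBT15_circR_22046 was listed at 0 and 0 in sham replicates 1 and 2 and at 1450 SRPBM in replicate 3, and at 1 h at 123, 0 and 1272. It then lay at 1045, 1050 and 3143 SRPBM at 6 h, at 2057, 3093 and 1126 at 12 h and at 1696, 1505 and 2467 at 3 d. The lowest of the 9 libraries from 6 h on was at 1045 SRPBM. Still, 6 of the 12 libraries after modelling exceeded sham replicate 3, among them all 3 at 3 d. At 1 h its mean was 0.962-fold the sham mean, while its mean log2 level was 0.82 above that of sham. That difference was -0.093 without both libraries with few circRNAs and 2.82 without sham replicate 3, so its direction at 1 h is not settled by these libraries. CBT15_circR_40460 was at 0 and 0 in sham replicates 1 and 2 and at 800 SRPBM in replicate 3, and none of the 1 h libraries listed it. It lay at 586, 495 and 1499 SRPBM at 6 h, at 503, 1530 and 206 at 12 h and at 95.5, 959 and 1212 at 3 d. Its log2 level at 1 h was -1.72 from sham, -2.57 without both libraries with few circRNAs and 0 without sham replicate 3, the only sham library that listed it. Of the 12 libraries after modelling, 4 exceeded sham replicate 3. Means from 6 h on were 2.80-fold to 3.22-fold the sham mean (1.86-fold to 2.15-fold without both libraries with few circRNAs), less than the 7.44-fold and 12.7-fold ranges between the libraries at 12 h and at 3 d.

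CBT15_circR_36565, CBT15_circR_4859, CBT15_circR_6449 and CBT15_circR_25900 were highest or most regular at 6 h and 12 h. CBT15_circR_36565 was at 0 in every sham library and at 368, 0 and 3006 SRPBM at 1 h. It lay at 701, 869 and 1413 SRPBM at 6 h and at 693, 646 and 725 at 12 h, and at 1373, 0 and 0 at 3 d. Its highest value of all, 3006 SRPBM or 267 reads, came at 1 h replicate 3, beside a library at 0. The 3 libraries at 12 h differed by only 1.12-fold, the narrowest range of any of the 7 at a time with all 3 libraries above 0.

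CBT15_circR_4859 was highest at 6 h and 12 h and lower again at 3 d. It was at 67.7, 0 and 0 SRPBM in sham, where 67.7 stands for 6 reads, and at 0, 332 and 450 at 1 h. It reached 747, 1291 and 975 SRPBM at 6 h and 738, 1790 and 747 at 12 h, then lay at 346, 0 and 173 at 3 d. The 6 libraries of 6 h and 12 h all lay above all 6 libraries of 1 h and 3 d. In set A&B, 4 of the 6 libraries after modelling exceeded the highest sham library, at 1 h replicates 2 and 3 and 3 d replicates 1 and 3. Folds over sham are not given for it, since the sham mean rests on 6 reads.

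CBT15_circR_6449 had the sharpest pattern and the lowest level. No sham or 1 h library listed it, and it then lay at 414, 362 and 451 SRPBM at 6 h and at 302, 566 and 249 at 12 h. At 3 d it was at 47.8, 0 and 43.3 SRPBM, values that stand for 4 reads (Poisson interval 1.09 to 10.2) and 3 reads (0.619 to 8.77). Reads in set C ran from 23 (14.6 to 34.5) to 50 (37.1 to 65.9), so the 3 d and set C values, and their counting intervals, do not overlap. CBT15_circR_25900 was likewise at 0 throughout sham, and 6 libraries in all listed it. These were 1 h replicate 3 at 687 SRPBM, the 3 libraries at 6 h (391, 603 and 889) and 12 h replicates 1 and 2 (526 and 680). It was at 0 in 12 h replicate 3 and in every 3 d library, as in sham. Its lowest listed value was 34 reads, far from the 2 at which listing starts.

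**Figure D2:**
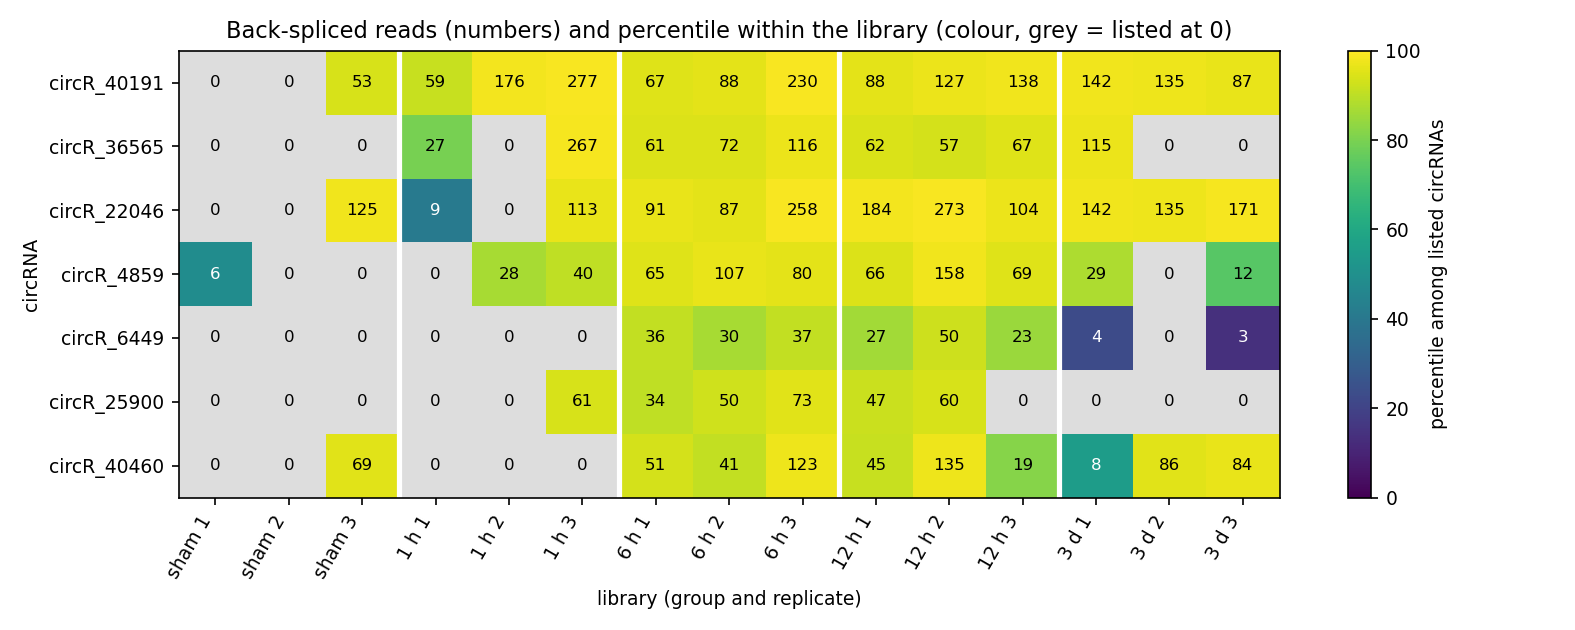
Back-spliced reads (numbers) of the 7 circRNAs (rows) in 15 libraries (columns), with colour for the percentile of the value among circRNAs above 0 in the same library and grey for values listed at 0. All cells at 6 h are coloured, and the cells of sham are grey apart from 4.

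Percentiles within a library do not depend on scaling between libraries, and they showed mostly on and off states. Of 105 values, 36 were listed at 0, and of the 69 above 0, 56 lay at or above the 90th percentile of their library, with a median at the 95.2nd. Only 5 of the 69 stood for fewer than 10 reads. CBT15_circR_40191 lay at the 93.9th percentile in sham replicate 3 and between the 91.4th and the 98.9th in the 12 libraries after modelling. CBT15_circR_6449 lay between the 85.1st and 92.5th percentile in set C and at the 22.9th and 13.9th where it was listed at 3 d. Most of these low values still stood in a group that also had a library at 0. They were CBT15_circR_6449 at 3 d (4 and 3 reads), CBT15_circR_4859 in sham (6 reads) and CBT15_circR_22046 at 1 h (9 reads). The value of CBT15_circR_40460 in 3 d replicate 1 (8 reads) did not. The circRNAs were picked on their levels, so nothing is read from the on and off states.

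Zeros of the 7 circRNAs were set beside those of 1090 circRNAs with a like depth, a median of 28.5 to 130 reads where listed and above 0 in at least 6 libraries. In set C, 1 of 42 values of the 7 was at 0 (2.38%), against 1.54% for circRNAs of like depth. In set A&B after modelling 18 of 42 were at 0 (42.9%), against 8.24%, and without 1 h replicate 1 it was 14 of 35 (40%), against 1.91%. In sham 17 of 21 values were at 0, against 13.8% for circRNAs of like depth, and without sham replicate 2 it was 10 of 14, against 2.61%. The sham zeros were part of what the circRNAs were picked on. So were the 1 h zeros of CBT15_circR_40460, and zeros of the others at 1 h or 3 d may be too. The 1090 circRNAs were not picked for a change. Nothing is therefore read from the gaps, and the shares carry no test.

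**Figure D3:**
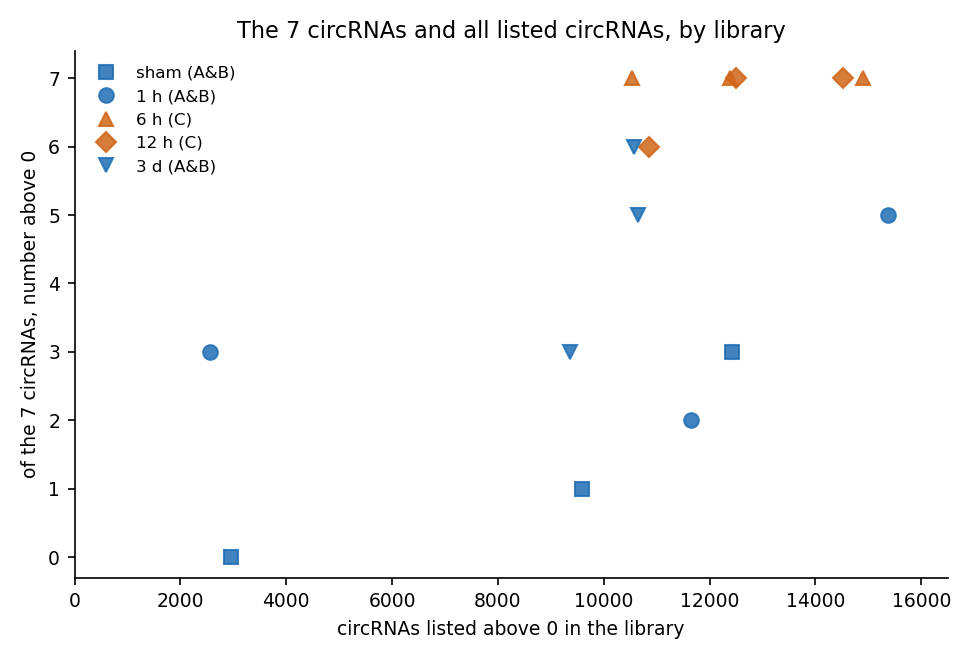
Number of the 7 circRNAs above 0 (vertical axis) against all circRNAs above 0 (horizontal axis) in each of 15 libraries, with symbols for groups and colours for title prefix. Libraries of set C hold 6 or 7 of the 7 circRNAs, and libraries of set A&B with a like number of circRNAs hold 2 to 6.

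Within sham, libraries that listed more circRNAs held more of the 7, but this did not hold throughout at 1 h or 3 d. Sham replicates 1, 2 and 3 listed 9583, 2958 and 12432 circRNAs and held 1, 0 and 3 of the 7. The 1 h libraries listed 2551, 11647 and 15366 and held 3, 2 and 5, and the 3 d libraries listed 10570, 9354 and 10638 and held 6, 3 and 5. The 6 libraries of set C listed 10539 to 14900 and held 7, 7, 7, 7, 7 and 6. Sham replicate 3 thus listed more circRNAs than 5 libraries that held more of the 7, among them 6 h replicates 1 and 2. What part detection has in the levels of the 7 was not tested.

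Whether the level after modelling went with the title prefix was asked by setting 6 h and 12 h (set C) against 1 h and 3 d (set A&B), with no sham library in the contrast. The 7 were picked for high levels at these times, so their values here are descriptions without a test. CBT15_circR_6449 averaged 391 ± 113 SRPBM in set C (SD, n = 6) against 15.2 ± 23.6 in set A&B (n = 6), a difference of 3.59 in mean log2(SRPBM + 23.2). Each of its 6 libraries of set C lay above all 6 of set A&B. CBT15_circR_4859 averaged 1048 ± 423 and 217 ± 190 SRPBM, a difference of 2.89 (2.20 without both libraries with few circRNAs). Its 2 sets of 6 libraries stood apart as well. Over all 16767 circRNAs, 0.34% had all of set C above all of set A&B after modelling, and nothing is read from this share, since the 7 were picked on these libraries.

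CBT15_circR_25900 averaged 515 ± 302 SRPBM in set C against 114 ± 280 in set A&B (SD, n = 6 each), a log2 difference of 3.13. The log2 difference was 2.60 for CBT15_circR_40460 and 1.65 for CBT15_circR_22046. For CBT15_circR_36565 it was 2.33, although the means of 841 ± 290 and 791 ± 1209 SRPBM hardly differed. Of the 6 libraries of set A&B after modelling, 3 listed CBT15_circR_36565, and zeros weigh more in the log2 means than in the plain means. Without both libraries with few circRNAs the log2 differences were 2.72 for CBT15_circR_25900, 2.60 for CBT15_circR_40460, 1.61 for CBT15_circR_22046 and 2.42 for CBT15_circR_36565.

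CBT15_circR_40191 was the exception in direction. It averaged 1425 ± 729 SRPBM in set C and 1745 ± 799 in set A&B after modelling (SD, n = 6 each), a log2 difference of -0.29 (-0.57 without both libraries with few circRNAs). This difference was below 0 in all 22 alternatives run, and those of the other 6 circRNAs were above 0 in every alternative in which they could be fitted. All alternatives reuse these libraries, so a constant sign does not settle a direction. For CBT15_circR_40191 the SD between libraries within a group was 1.39 on this scale. It is pooled over all 5 groups and includes the wide spread of sham, so it is no yardstick for a contrast without sham. With only the groups compared in the fit, the difference of -0.29 had an SE of 0.49. The difference was -0.086 without 1 h replicate 3. The median log2 difference was 2.60 over the 7 and 0.27 over all 16767 circRNAs, and the latter was 0.061 without 1 h replicate 1.

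Over the whole table, limma called 3 of 16767 circRNAs in this contrast, all higher in set C (0.0179%), and CBT15_circR_6449 was 1 of them. The others, named after their values were seen, were CBT15_circR_5184, listed in 3 of 3 libraries at 12 h but in 1 of 3 at 6 h and at 1 h, and CBT15_circR_5196, which lay at 2275 to 2364 SRPBM at 6 h and which no 3 d library listed. Without sham replicate 2 and 1 h replicate 1, limma called 33 of 16593 circRNAs (0.199%), and 5 of the 7 were among them, all but CBT15_circR_40191 and CBT15_circR_22046. The 7 were picked on the same values, so neither count supports a difference between the sets. Set and time cannot be told apart in this contrast, since 6 h and 12 h are the middle times as well as the libraries of set C.

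**Figure D4:**
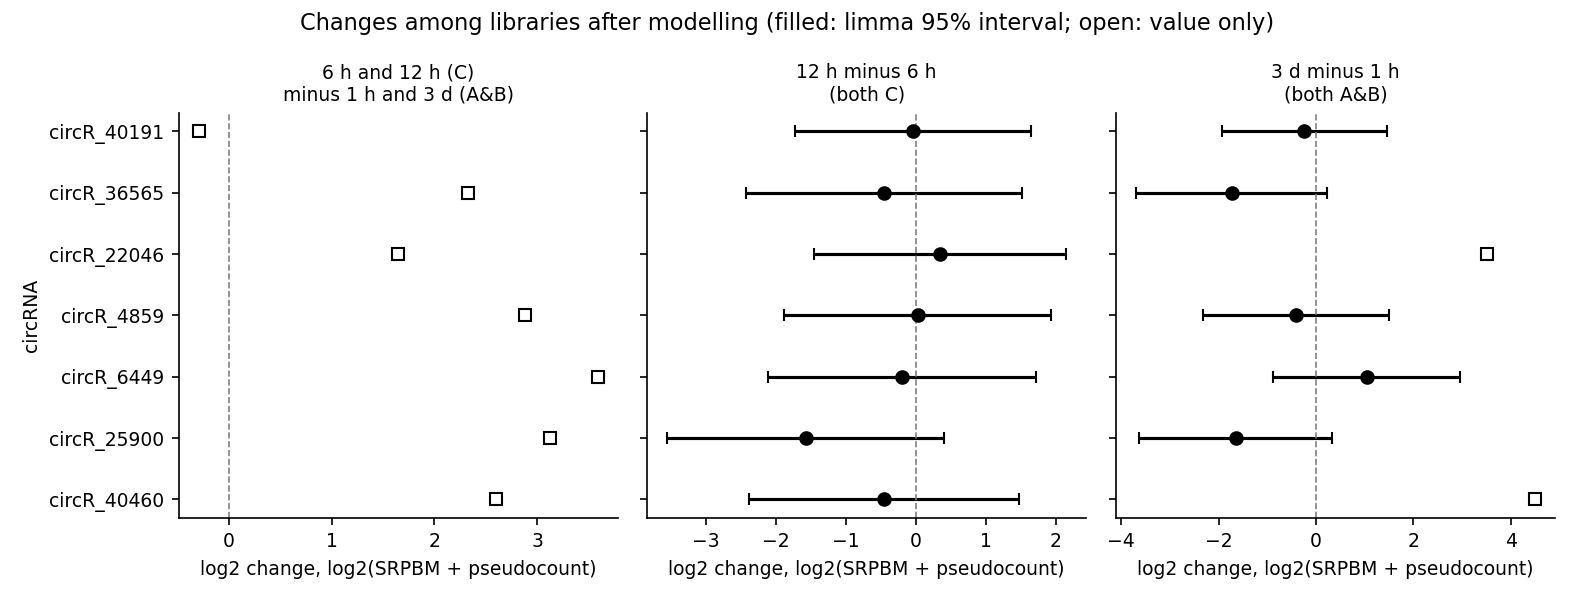
Log2 changes on log2(SRPBM + pseudocount) of the 7 circRNAs (rows) in 3 contrasts among libraries after modelling. Filled points have limma 95% intervals, which are descriptions and no test, since the 7 were picked on levels after modelling. Open squares are values given without an interval. The intervals for 12 h minus 6 h all cross 0, and 6 of the 7 squares for the sets lie above 0.

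Within set C, where the prefix is shared, the levels at 12 h and 6 h were compared, a contrast that the 7 are not known to have been picked on. Limma called 0 of the 7 circRNAs and 2 of all 16767 (0.0119%). At an unadjusted limma p under 0.05 were 0 of the 7 and 637 of all 16767. Such p-values are rare over all circRNAs too, so nothing is read from the 0 of 7. Without sham replicate 2 and 1 h replicate 1 the counts were again 0 of 7, and 5 of 16593 (0.0301%). Log2 changes ran from -1.57 for CBT15_circR_25900 (95% interval -3.56 to 0.41), which was listed at 0 in 12 h replicate 3, to 0.35 for CBT15_circR_22046 (-1.45 to 2.15). CBT15_circR_40191 was at -0.041 (-1.73 to 1.65) and CBT15_circR_4859 at 0.024 (-1.88 to 1.93). The intervals allow several-fold differences in either direction, so equal levels are not shown. The circRNAs called, named after their values were seen, were CBT15_circR_5184 and CBT15_circR_5191, both listed in 3 of 3 libraries at 12 h. At 6 h they were listed in 1 of 3 and 2 of 3 libraries. The highest 6 h value of each exceeded its highest at 12 h (2061560 against 1739110 and 15320300 against 13205900 SRPBM).

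Within set A&B, 3 d was compared with 1 h. CBT15_circR_40460, which had been picked on this contrast, was above 0 in none of the 1 h libraries and in all 3 at 3 d. The 3 d level of CBT15_circR_22046 may be among those it was picked for, and its change is given without a test too. It had a log2 change of 3.51, and of 3.43 without both libraries with few circRNAs. Levels of the other 5 at 1 h or 3 d may also be among those they were picked for, so their changes and intervals are descriptions. Over the whole table limma called 6 of 16767 circRNAs (0.0358%), and 65 of 16593 (0.392%) without those 2 libraries. CBT15_circR_40460 is among the 6, but it was picked on this contrast, so its place there supports nothing. CBT15_circR_36565 had a log2 change of -1.73 (95% interval -3.70 to 0.24), and of -1.54 without those 2 libraries. That of CBT15_circR_25900 was -1.65 (-3.63 to 0.33), and -2.47 without them. For CBT15_circR_40191 it was -0.24 (-1.93 to 1.45), and -0.78 without them. These intervals rest largely on the spread of circRNAs of like abundance and can be too narrow. Without the trend of the spread on abundance, the SE was 1.37 against 1.00 for CBT15_circR_36565. It was 1.16 against 1.01 for CBT15_circR_25900 and 0.96 against 0.86 for CBT15_circR_40191.

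The 7 circRNAs did not follow a single course. Spearman correlations of SRPBM over the 15 libraries ran from 0.043 to 0.88 over the 21 pairs, with a median of 0.46, and over the 12 libraries after modelling from -0.26 to 0.87, with a median of 0.35. Without both libraries with few circRNAs the medians were 0.37 over 13 libraries and 0.29 over 11. These points share libraries and their detection, and the sham zeros were picked for, so the correlations are descriptions. CBT15_circR_4859 and CBT15_circR_6449 were most alike (0.88 over 15 libraries and 0.87 over 12), followed by CBT15_circR_22046 and CBT15_circR_40460 (0.81 and 0.75). CBT15_circR_36565 and CBT15_circR_40460 were least alike over 15 libraries, at 0.043, and at -0.14 over 13. CBT15_circR_40191 and CBT15_circR_22046 had equal reads in 3 d replicates 1 and 2 (142 and 135), and differed in 3 d replicate 3 (87 and 171).

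Among the 7468 circRNAs above 0 in at least 8 libraries, those whose levels ran most like each of the 7 were mostly less abundant. They were chosen for the highest correlation in the same 15 libraries. A pattern shared with one of the 7 thus follows from the choice, and nothing is read from it. Next to CBT15_circR_4859 were CBT15_circR_28409 (Spearman rho 0.947 over 15 libraries) and CBT15_circR_26070 (0.945). CBT15_circR_28409 was at 0 in every sham library, at 235 to 433 SRPBM in set C and at 0 to 146 in set A&B after modelling, so its 2 sets stood apart as well. Next to CBT15_circR_6449 were CBT15_circR_22734 and CBT15_circR_32604 (0.933 each), at 64.9 to 426 and 108 to 378 SRPBM in set C. CBT15_circR_40191 ran most like CBT15_circR_8231 (0.900) and CBT15_circR_21511 (0.858), whose highest reads in any library were 22 and 26. CBT15_circR_36565 ran most like CBT15_circR_25267 (0.919) and CBT15_circR_41446 (0.885), and CBT15_circR_22046 like CBT15_circR_26897 (0.934) and CBT15_circR_17314 (0.926). CBT15_circR_25900 ran most like CBT15_circR_39286 (0.917) and CBT15_circR_27648 (0.900). CBT15_circR_40460 ran most like CBT15_circR_25857 (0.953), which was above 0 in all 3 sham libraries at 197 to 1114 SRPBM, and CBT15_circR_37314 (0.939). No circRNA had the same reads as one of the 7 in 8 or more libraries (0 found).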

How the data were processed

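The deposited table holds 43472 circRNAs by 15 libraries. Per its name, the circRNAs were called with find_circ, which looks for back-splice reads, and the signal the authors deposited is SRPBM, scaled to 1e9 mapped reads. Bowtie 0.12.2 and the build Rnor_6.0 appear in the submitters' processing notes with no role stated. Call thresholds: not given in the sources used here. Per the labels' protocols, blood was taken with the PAXgene system and libraries were made with a NEBNext Ultra kit. Listed values fell on whole multiples of a step that each library has for itself (100% of values, within 0.01 read), taken as 1 read, so that the smallest value stands for 2. With a step of double the size 52.6% were whole, and whether the true step is a smaller fraction was not tested. From this step the reads behind a value and the mapped reads (66.0 to 92.4 M, with M for 1e6) were computed. Intervals on reads are exact 95% Poisson intervals and cover counting error only. No pair of libraries held identical values (0 pairs).

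CircRNAs above 0 in at least 3 libraries (16767, all 7 described here among them) were tested with limma 3.58.1 in R 4.3.3 on log2(SRPBM + 23.2), with a trend of the spread on abundance, all 5 groups in 1 fit and Benjamini-Hochberg adjustment over all circRNAs tested, at 0.05. The pseudocount is the median over libraries of the smallest value above 0. Low circRNAs change by more than this scale shows, and where libraries are at 0 the value depends on the pseudocount. SEs rest largely on circRNAs of like abundance, so they can understate the spread of a single circRNA. The fit was also run on simulated data in which zeros fell without regard to group. The zeros of the 7 differ between groups, so that run does not check the pattern described here.

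The 7 circRNAs, and the comparisons run on them, were chosen with earlier results of these data known. A test of the 7 between sets C and A&B had been planned. It reuses the levels they were picked for, so their values there are given without p-values. In the other contrasts no p-values of the 7 are given either, apart from a count under 0.05 for 12 h against 6 h. The intervals there are descriptions. Besides the 7, those named are the 2 circRNAs with the highest Spearman correlation with each, and those called where a contrast is named as giving a few calls. No host gene list or cell marker list could be applied, since the table has no gene names.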

Additional observations from a re-analysis of the deposited data

How the results depend on the processing

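Counts of called circRNAs depended on the processing, listed here for set C against set A&B after modelling, 12 h against 6 h, and 3 d against 1 h, with main counts of 3, 2 and 6. A pseudocount of 1 SRPBM gave 0, 0 and 0, and 10 times the main one gave 6 for the sets. No filter gave 12, 6 and 13, and the filter of at least 8 libraries, which CBT15_circR_25900 did not pass, gave 1, 0 and 0. Scaling to total circRNA signal gave 5 for the sets and 26 for 3 d against 1 h (1 higher and 25 lower, against 3 and 3), and median-ratio scaling 1 for 12 h against 6 h. Without the trend limma called 1, 0 and 0, and with only the groups compared 0 for 12 h against 6 h and 2 for 3 d against 1 h. With sham replicate 2 and 1 h replicate 1 both left out, calls numbered 33, 5 and 65. Leaving out 1 replicate gave 3 to 11, 1 to 2 and 2 to 22. For the sets the counts were 8 and 11 without 1 h replicate 2 or 3, and 5 without 6 h replicate 1, 6 h replicate 3 or 12 h replicate 3. For 12 h against 6 h they were 1 without 12 h replicate 2 or 3, and for 3 d against 1 h 22 and 16 without 1 h replicate 2 or 3 and 2 without 3 d replicate 3. The cause was not tested.

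A replicate block on the numbers in the titles gave 5, 3 and 11 calls. Deviations of libraries with the same number correlated at a median of 0.0054 over 30 pairs, with 2 above 0.1, and 5 of 15 libraries were closest to their own number, so the numbers do not show paired samples.

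Log2 changes of the 7 that changed sign in these contrasts, none of them called, were these. For 12 h against 6 h, CBT15_circR_4859 went from 0.024 to -0.31 with total-signal scaling. CBT15_circR_40191 went from -0.041 to 0.044 with median-ratio scaling. Leaving out 1 library at a time, the lowest and highest values for 12 h against 6 h were -0.42 and 0.49 for CBT15_circR_40191, -0.39 and 0.24 for CBT15_circR_4859, -0.53 and 0.025 for CBT15_circR_6449, -2.45 and 0.0059 for CBT15_circR_25900 (-1.57 with all libraries, and 0.0059 without 12 h replicate 3, where it was at 0) and -1.17 and 0.21 for CBT15_circR_40460. For 3 d against 1 h they were -0.78 and 0.18 for CBT15_circR_40191 and -1.79 and 0.77 for CBT15_circR_4859.

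Depth limits the low values: at 2 reads, the smallest multiple listed, no difference between a low level and 0 can be read.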

Other observations

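Rows next to the 7 circRNAs by running number were looked at after the values had been seen. Whether these numbers follow genome position is not given in the sources used here. Of the 14 adjacent rows, 9 had at most 10 reads in any library. CBT15_circR_4860, next to CBT15_circR_4859, was above 0 in 14 libraries, with 4 to 23 reads in sham, 49 to 126 in set C and 0 to 51 in set A&B after modelling. Its mean was 166 SRPBM in sham, 921 in set C and 251 in set A&B after modelling, and its Spearman correlation with CBT15_circR_4859 was 0.90 over the 15 libraries. Unlike CBT15_circR_4859, it was listed in all 3 sham libraries. CBT15_circR_40461, next to CBT15_circR_40460, was above 0 in all 15 libraries at 62 to 450 reads, with a correlation of -0.040 with CBT15_circR_40460. CBT15_circR_40461 had 62 to 450 reads at 1 h and 3 d, where CBT15_circR_40460 was listed at 0 in 3 of 6 libraries. CBT15_circR_22045, next to CBT15_circR_22046, was above 0 in 13 libraries, at 17 to 59 reads in set C, with a correlation of 0.74.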
